A study of Mus musculus with 39 samples.

Results

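Livers of mice that had been rested for 4 wks after a 10-day regimen of aggressor exposure (AggE) were compared with those of Ctrl mice on the same calendar. These are the 12 mice whose labels give the 10-day regimen and the 4 week rest, 6 AggE and 6 Ctrl, out of 39 mice in the whole series. All were C57BL/6J males housed singly. AggE mice spent daily sessions of 6 hrs, without food, in a mesh cage inside the home cage of a trained SJL aggressor, with 3 physical contacts per session at random times, while Ctrl mice were treated on the same schedule, food deprivation included, with no aggressor present. The sample labels give no age. An hour before the terminal bleed the study ran a partition test, in which a mouse faced an aggressor across a divider. Each label describes 1 of 6 biological replicates, and each mouse had 1 array, on which liver RNA (Cy-5) competed with a common mouse reference RNA (Cy-3) without a dye swap. Each value is given for a gene's brightest probe as liver over reference on the log2 scale, and a change is the mean of AggE minus the mean of Ctrl on that scale. Since the tissue is bulk liver, fewer cells of a type and less RNA per cell cannot be told apart.

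The liver meets demands for fuel between meals by oxidizing fatty acids in mitochondria and peroxisomes, a program driven in large part by the nuclear receptor PPARa, and by making ketone bodies and glucose. It also makes most plasma proteins, from albumin and clotting factors to the acute phase proteins that climb within hours of injury or stress, and it converts cholesterol to bile acids and ammonia to urea. Glucocorticoids, growth hormone and inflammatory cytokines act on these programs.

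Hepatocyte transcripts marked all 12 arrays. All 9 measured members of the list of defining hepatocyte genes, Alb, Apob and Ttr among them, were well above background on every array, and their mean log2 ratio lay between 5.43 and 6.01 in Ctrl and between 4.74 and 5.80 in AggE mice. The share of probes well above background in Cy-5 had a median of 51.3% in Ctrl (45.6% to 70.2%) and of 52.9% in AggE mice (41.6% to 56.6%), no spot was saturated, and the number of arrays limits the precision. The 12 arrays were read on 1 day from 4 slides. Slide 1 held Ctrl mice 1 to 3, slide 2 held Ctrl mice 4 to 6 with AggE mouse 1, slide 3 held AggE mice 2 to 5, and slide 4 held AggE mouse 6. Only slide 2 therefore compares the groups directly, and elsewhere slide and group cannot be told apart. Values inside slide 2 (AggE mouse 1 minus the mean of Ctrl mice 4 to 6, with no error of their own) or with the slide as a random block stand beside the results that they reduced or reversed most.

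At 4 wks 56 of 18259 genes (0.307%) were called at a change of at least 2-fold and an unadjusted p up to 0.05. Of these 24 (0.131%) were higher in AggE mice and 32 (0.175%) lower, a balance that single mice turned, to 73 higher of 93 without AggE mouse 1 and 12 of 42 without Ctrl mouse 5. At that p without a fold limit there were 4068 genes (22.3%). With p-values adjusted over all probes (limma, Benjamini-Hochberg), 729 genes (3.99%) passed a limit of 0.05 at any fold, 249 higher (1.36%) and 480 lower (2.63%). These changes were small, with a median size of 0.44. Both 2-fold and the adjusted limit were passed by 22 genes (0.12%), 10 higher (0.0548%) and 12 lower (0.0657%), of which 21 have a symbol. The median change over all genes was 0.01, and 53.2% of genes were higher. The count of 729 was unstable to single mice: it was 1708 without AggE mouse 1 and 1493 without Ctrl mouse 2, and 122, 131, 191, 308 and 444 without AggE mouse 3, AggE mouse 2 and Ctrl mice 3, 4 and 5. A random block for the slide left 10, all of them among the 729.

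Among the genes that set every AggE mouse apart from every Ctrl mouse were the enzymes of fatty acid breakdown Cyp4a10, Acad11 and Hadha, which were higher. Cyp4a10, a cytochrome P450 that hydroxylates the tail of fatty acids and a classic PPARa target, ranged from 0.25 to 2.02 (median 1.25) in Ctrl mice and from 2.08 to 3.65 (median 2.68) in AggE mice. It rose by 1.68 ± 0.32 (SE), or 3.21-fold (adjusted p = 0.00737), the largest rise among the 21 named genes. The group boundary was narrow, since Ctrl mouse 2 at 2.02 nearly met AggE mouse 2 at 2.08. A second probe of Cyp4a10 gave a change of 0.33 (adjusted p = 0.363), so the probes disagree, and genes of this P450 family are similar enough in sequence that a probe may also bind transcripts of relatives.

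Acad11, an acyl-CoA dehydrogenase that acts on hydroxylated fatty acids, was separated more widely. It ranged from -0.01 to 0.73 (median 0.18) in Ctrl and from 1.23 to 1.76 (median 1.49) in AggE mice, a rise of 1.18 ± 0.23 or 2.27-fold (adjusted p = 0.00812). AggE mouse 1, on the slide shared with Ctrl mice, had the highest value of all, 1.76, and the difference inside slide 2 was 1.49. Hadha, the alpha subunit of the mitochondrial trifunctional protein that carries out the later steps of long-chain beta-oxidation, had the smallest p-value of all genes. It ranged from -0.33 to 0.29 (median -0.15) in Ctrl and from 0.34 to 1.08 (median 0.78) in AggE mice, a rise of 0.81 ± 0.11 or 1.76-fold (adjusted p = 0.000262). Under a random slide block it also passed (adjusted p = 0.0281), and its difference inside slide 2 was 0.55.

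**Figure D1:**
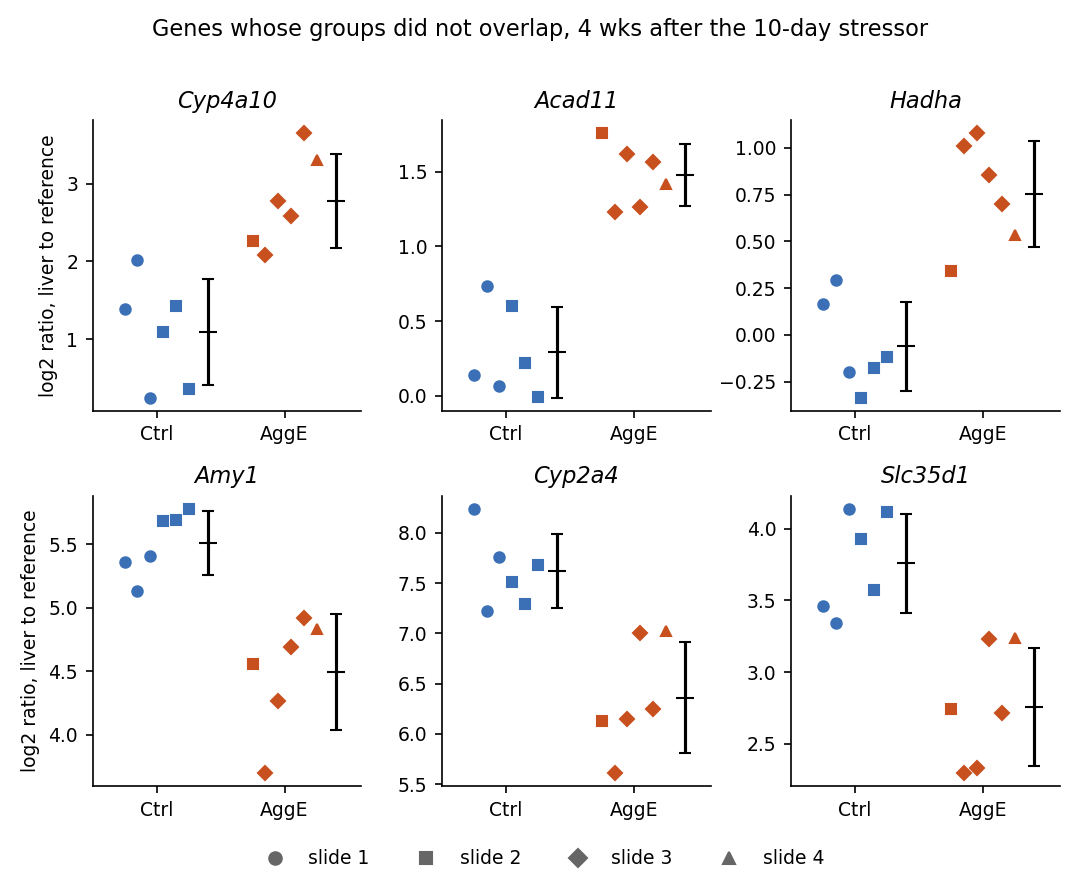
Log2 ratio of liver to reference (vertical axis) of each Ctrl (blue) and AggE (orange) mouse for 6 genes whose groups did not overlap, with the slide of each array as the marker shape and the mean ± SD (n = 6) beside each group. Cyp4a10, Acad11 and Hadha were higher and Amy1, Cyp2a4 and Slc35d1 lower in every AggE mouse, the mouse on slide 2 included.

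Of 30 measured PPARa targets, 3 were higher past the adjusted limit (Hadha, Cyp4a10 and Acot1) and 0 were lower, beside 3.99% of all genes in either direction. Acot1, a cytosolic thioesterase that releases fatty acids from CoA, ranged from -0.23 to 0.92 (median 0.11) in Ctrl and from 0.77 to 1.57 (median 1.14) in AggE mice, with a change of 0.85 ± 0.21 (adjusted p = 0.0242). Its groups overlapped through Ctrl mice 1 and 2, at 0.91 and 0.92, and the call was lost without Ctrl mouse 3, 4 or 6 or AggE mouse 3. The liver fatty acid binding protein Fabp1, given here for its role, had the lowest change of the list (-0.98, adjusted p = 0.0538). Of the members of the list 19 were higher and 11 lower, with a median of 0.09 that turned to -0.06 without scaling between arrays. Among 28 genes of mitochondrial and peroxisomal fatty acid oxidation, Hadha alone passed, and the median was 0.05 with 16 higher, but -0.05 inside slide 2. At an unadjusted p 7 were higher and 5 lower. Among the lower were Acaa1a (-0.47, adjusted p = 0.0531 in limma) and Acadvl (-0.53, adjusted p = 0.0664).

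The respiratory chain, which takes up the electrons from this oxidation, held calls in both directions. Of 57 measured genes of oxidative phosphorylation, 5 were higher (Ndufb5, Sdha, Atp5d, Sdhb and Cyc1) and 4 lower (Ndufa5, Ndufb3, Ndufa1 and Uqcrq), with a median of -0.07. The rises included the flavoprotein and the iron-sulfur subunit of complex II. Sdha ranged from 0.02 to 1.00 (median 0.54) in Ctrl and from 1.00 to 1.34 (median 1.24) in AggE mice, a rise of 0.68 ± 0.14 (adjusted p = 0.00929), so only Ctrl mouse 2 reached the AggE range. Sdhb rose by 0.64 ± 0.16 (adjusted p = 0.0269), though by 0.13 inside slide 2. Ndufb5, an accessory subunit of complex I, ranged from -0.37 to 0.15 (median -0.07) in Ctrl and from 0.26 to 0.97 (median 0.48) in AggE mice, without overlap, and rose by 0.59 ± 0.11 (adjusted p = 0.00737). It remained past the limit with the slide as a random block (adjusted p = 0.0419). All 4 that fell encode accessory parts of complex I or complex III. The largest of these falls, that of Ndufa5, was 0.71 on the log2 scale (adjusted p = 0.00874), but inside slide 2 its difference was -0.13, and those of Ndufa1 and of Atp5d there, 0.10 and -0.10, had the opposite sign to the changes over all mice of -0.55 and 0.70. Ndufb3 was at -0.06 there. The median of the list was 0.01 under a random slide block.

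Among the 21 genes past 2-fold and the adjusted limit, the lower ones with separate groups were Cyp2a4, Amy1 and Slc35d1. The groups of some lower genes with smaller changes, such as Igf2r and Cflar, did not overlap either. Cyp2a4 and Cyp2a5 are closely related cytochrome P450 genes on mouse chromosome 7, known for steroid and coumarin hydroxylation, and Cyp2a4 is expressed more in female than in male liver. Their promoters are printed here because both members of the pair fell and their starts are nearly identical. Most of each window lies outside the transcript and says nothing of probe binding. Each runs from 250 bases before the start of the gene to 50 bases after it on the plus strand (RefSeq, GRCm38.p6), at chr7:26306942-26307241 for Cyp2a4 and at chr7:26835089-26835388 for Cyp2a5. Capitals mark the 5 of 299 aligned bases that differ (98.3% the same). The motif TATAAA, searched on both strands, begins 28 bases before the start in Cyp2a4 and 29 in Cyp2a5, and 13.6% of all 32851 promoter windows of this length hold it.
Cyp2a4: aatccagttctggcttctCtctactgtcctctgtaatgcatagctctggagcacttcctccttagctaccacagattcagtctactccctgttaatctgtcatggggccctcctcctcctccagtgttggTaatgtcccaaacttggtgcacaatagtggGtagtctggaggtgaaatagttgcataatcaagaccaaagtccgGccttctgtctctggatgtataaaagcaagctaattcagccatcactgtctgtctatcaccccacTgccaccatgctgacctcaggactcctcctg
Cyp2a5: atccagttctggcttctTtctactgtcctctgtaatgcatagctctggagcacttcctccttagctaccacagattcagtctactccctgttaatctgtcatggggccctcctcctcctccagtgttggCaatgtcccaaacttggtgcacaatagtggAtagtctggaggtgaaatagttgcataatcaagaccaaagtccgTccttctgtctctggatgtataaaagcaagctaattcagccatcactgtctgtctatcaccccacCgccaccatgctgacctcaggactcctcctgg

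Cyp2a4 ranged from 7.23 to 8.24 (median 7.59) in Ctrl and from 5.61 to 7.02 (median 6.20) in AggE mice. It fell by 1.26 on the log2 scale (SE 0.30, adjusted p = 0.0219), and no AggE mouse reached the lowest Ctrl mouse. Cyp2a5 ranged from 7.82 to 8.79 (median 8.43) and from 6.66 to 7.95 (median 7.34), a fall of 1.04 (SE 0.28, adjusted p = 0.0364), with AggE mice 4 and 6 above the lowest Ctrl value. Second probes gave -0.57 for Cyp2a4 (adjusted p = 0.408) and -0.78 for Cyp2a5 (adjusted p = 0.0538), the same direction past no limit. Probe sequences were not compared here, so signal shared between these paralogs cannot be told apart from a change in both.

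Amy1, the amylase of salivary gland and liver, ranged from 5.13 to 5.78 (median 5.55) in Ctrl and from 3.70 to 4.92 (median 4.62) in AggE mice. It fell by 1.01 (SE 0.20, adjusted p = 0.0085), a second probe fell by 1.12 (adjusted p = 0.0336), and the value inside slide 2 was -1.16. Slc35d1, a carrier of nucleotide sugars into the endoplasmic reticulum, ranged from 3.34 to 4.14 (median 3.75) and from 2.3 to 3.24 (median 2.73), a fall of 1.00 (SE 0.25, adjusted p = 0.0266). Both genes were lower in all AggE mice of each slide than in any Ctrl mouse. Rnd3, a small GTP-binding protein that lowers cell contractility, fell by 1.13 (SE 0.21, adjusted p = 0.00737), while its other probes gave -0.81 (adjusted p = 0.0324) and -0.26 (adjusted p = 0.116). It went from 0.01 to 1.89 (median 0.89) in Ctrl to -0.57 to 0.28 (median -0.33) in AggE mice. Its groups met only where AggE mouse 1 at 0.28 lay above Ctrl mice 2 and 6. In all, the groups did not overlap for 318 of 18259 genes (1.74%), for 177 of the 729 and for 5 of the 21 (Cyp4a10, Acad11, Amy1, Cyp2a4 and Slc35d1).

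Other named genes differed among mice of a group in either of 2 ways. In each rise other than those of Cyp4a10 and Acad11, AggE mouse 1 was the lowest AggE mouse and lay nearer to the Ctrl mice of its own slide than to the other AggE mice. These include Ass1, the urea cycle enzyme that joins citrulline and aspartate (change 1.24 ± 0.36, adjusted p = 0.0447), Cyp27a1, which oxidizes the sterol side chain in bile acid synthesis (1.07 ± 0.31, adjusted p = 0.0454), and Tecr, a reductase of very long chain fatty acid synthesis (1.05 ± 0.30, adjusted p = 0.0442). Oaz1, the antizyme that restrains polyamine synthesis (1.03 ± 0.27, adjusted p = 0.034), showed it too. For Oaz1 the 5 AggE mice of slides 3 and 4 lay between -1.24 and -0.79, AggE mouse 1 was at -2.97, Ctrl mice 3 to 6 lay between -2.89 and -2.58, and Ctrl mice 1 and 2 were at -1.66 and -1.33. For Tecr AggE mouse 1 was at -1.83, with Ctrl mice 4 to 6 between -1.94 and -1.58 and the other AggE mice between 0.16 and 0.43. Inside slide 2 the change was -0.19 for Oaz1, -0.06 for Tecr and -0.24 for the small heat shock protein Hspb1, the opposite sign to the change over all mice, and 0.0008 for Cyp27a1 and 0.06 for Ass1. Fcgrt, the neonatal Fc receptor that spares IgG and albumin from degradation (1.1 ± 0.26), Ddt, a tautomerase related to macrophage migration inhibitory factor (1.25 ± 0.32), and the protease inhibitor Serpina3n (1.33 ± 0.35) kept their sign inside slide 2, at 0.11, 0.41 and 0.24.

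In the falls with overlapping groups, Rnd3 excepted, AggE mice 1 to 3 were the lowest and AggE mice 4 to 6 lay nearer to Ctrl. Pon1, the paraoxonase carried by high density lipoprotein, was 5.31 to 6.11 in AggE mice 1 to 3, 7.03 to 7.43 in AggE mice 4 to 6 and 7.37 to 8.20 in Ctrl mice (change -1.32 ± 0.31, adjusted p = 0.0195). The elongase of polyunsaturated fatty acids Elovl2 was 3.30 to 4.29, 5.12 to 5.44 and 5.15 to 6.23 (-1.30 ± 0.33, adjusted p = 0.0286). Cdo1, the dioxygenase that clears cysteine toward taurine, was 4.01 to 4.62, 5.18 to 5.64 and 5.63 to 6.36 (-1.04 ± 0.23, adjusted p = 0.0162). AggE mice 2 to 5 share a slide, so this split also ran within slide 3. Sec14l4, a lipid-binding protein of the SEC14 family, had the largest difference of the 21 inside slide 2, -2.45, and was the only one of the 21 past the adjusted limit with the slide as a random block (change -1.29 ± 0.26, adjusted p = 0.00874 without and 0.0419 with the block). Saa4, the serum amyloid A made in the unstressed liver, fell by 1.18 (SE 0.25, adjusted p = 0.0106, and -0.85 with adjusted p = 0.224 by a second probe) and the asparaginase Aspg by 1.02 (SE 0.28, adjusted p = 0.0373), though a second probe of Aspg gave 0.23.

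**Figure D2:**
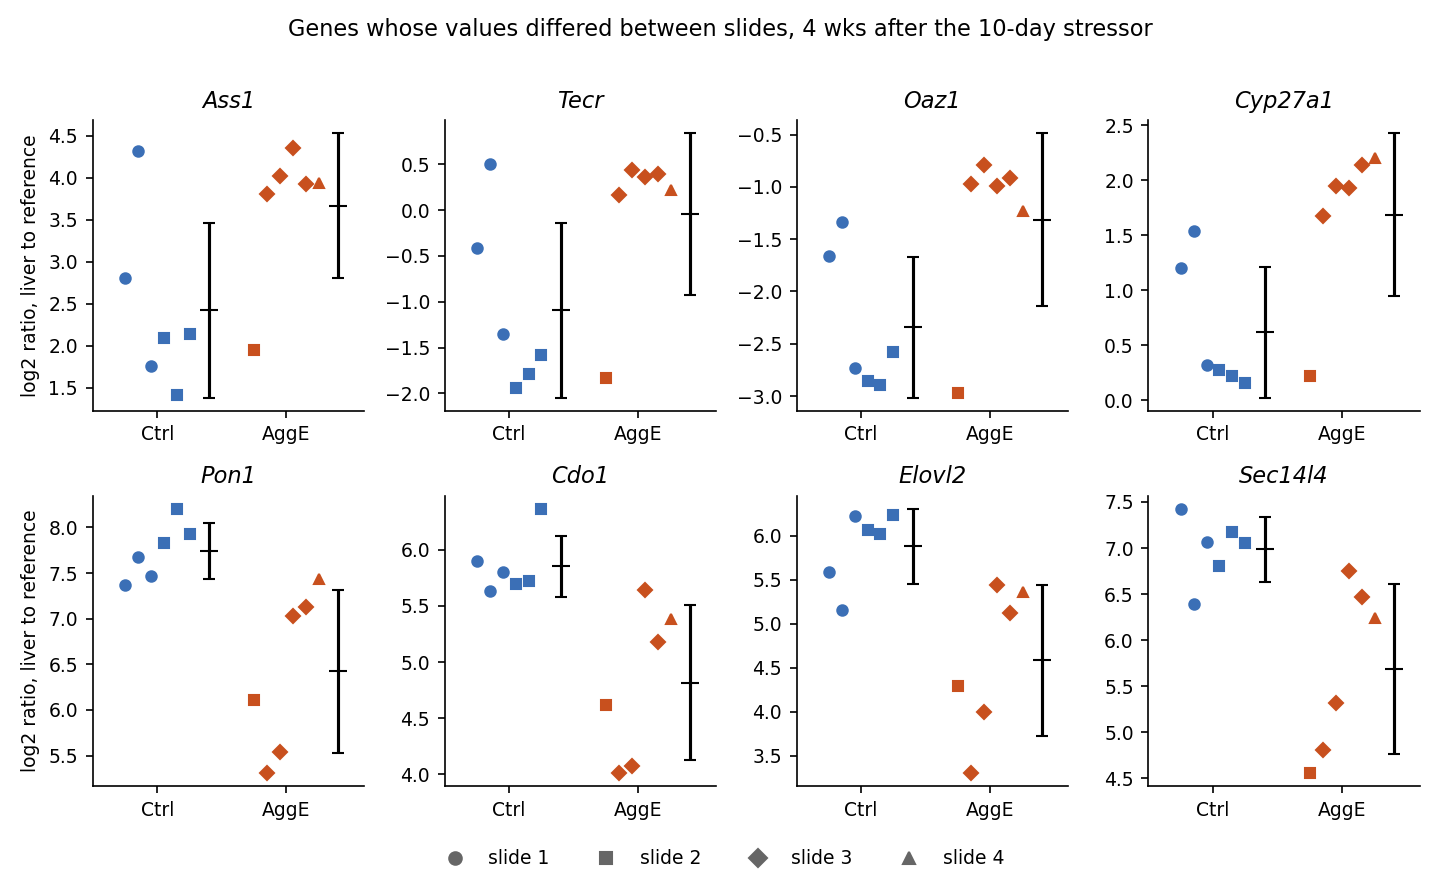
Log2 ratio of liver to reference (vertical axis) of each mouse for 4 genes that were higher (top) and 4 that were lower (bottom) in AggE mice, with Ctrl in blue, AggE in orange, slides as marker shapes and mean ± SD (n = 6) beside each group. In the top row AggE mouse 1 (square) lay near the Ctrl mice of slide 2, and in the bottom row AggE mice 1 to 3 lay lowest.

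With the slide as a random block, adjusted p-values of the 21 genes ran from 0.0419 (Sec14l4) to 0.326 (Ass1). Inside slide 2, 18 of the 21 changes kept their sign. Of the 249 genes higher past the adjusted limit, 217 had the same sign inside slide 2, and for 90 AggE mouse 1 lay within the range of the Ctrl mice. Of the 480 lower genes these counts were 450 and 208. When each mouse was left out in turn, 6 of the 21 remained past the adjusted limit in all 12 fits: Acad11, Amy1, Cyp4a10, Rnd3, Saa4 and Sec14l4. Most calls were lost without AggE mouse 2 or 3 (15 each) or Ctrl mouse 3 (13), and 0 without Ctrl mouse 2.

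**Figure D3:**
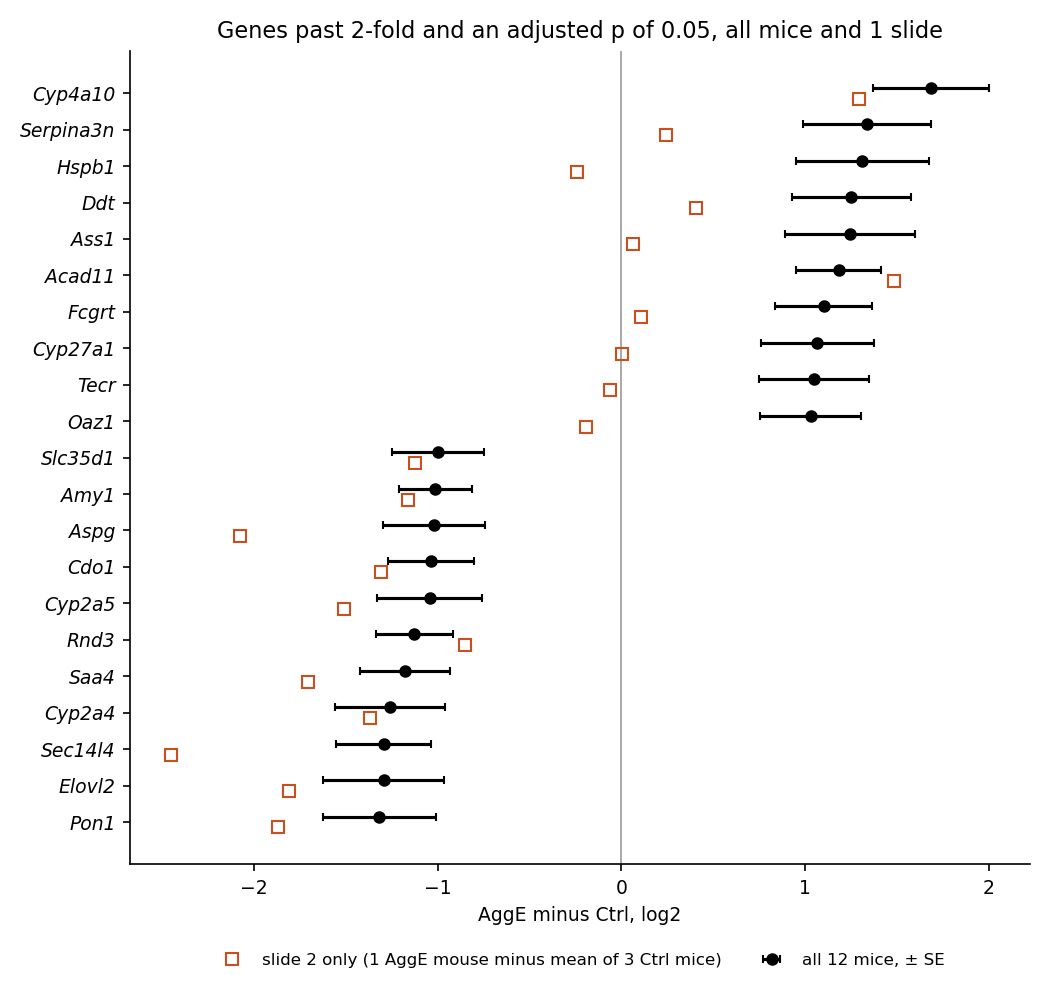
Change (AggE minus Ctrl, log2, horizontal axis) of the 21 genes past 2-fold and the adjusted limit, for all 12 mice with its SE (black circles) and for the 4 mice of slide 2 (open squares, with no error since they hold 1 AggE mouse). Lower genes kept their direction in slide 2, whereas of the 10 higher genes only Cyp4a10 and Acad11 kept most of their change and Hspb1, Oaz1 and Tecr fell below 0.

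Genes past the adjusted limit with the slide as a random block were looked up after their values were seen. Besides Hadha, Ndufb5 and Sec14l4 they were Sobp, Tmem52b and Col24a1 among the higher and Cflar, Zdhhc16, Nasp and Pakap among the lower. Cflar, the inhibitor of caspase activation at death receptors, ranged from 1.64 to 2.03 (median 1.85) in Ctrl and from 0.89 to 1.31 (median 0.99) in AggE mice, without overlap. It fell by 0.81 (SE 0.12, adjusted p = 0.00219, and 0.0419 with the block). Nasp, a histone chaperone, ranged from -1.88 to -1.33 (median -1.50) and from -2.31 to -2.08 (median -2.17), again without overlap, and fell by 0.62 (SE 0.11, adjusted p = 0.007). Col24a1, a fibrillar collagen, rose by 0.42 ± 0.10 (adjusted p = 0.021) with separate groups. All 10 genes had the same sign inside slide 2 as over all mice, and 5 of the 10 had groups that did not overlap. The block itself weighs the comparison inside slide 2, so the shared sign is no separate evidence.

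In cholesterol and lipid handling, calls went both ways. Of 25 cholesterol synthesis genes, 2 synthases of the pathway were higher past the limit, Fdps (0.84 ± 0.21, adjusted p = 0.0276) and Fdft1 (0.52 ± 0.14, adjusted p = 0.0356), 1 gene was lower, and the median was -0.13. Inside slide 2 Fdps and Fdft1 came to 0.06 and -0.07, and without the 4 mice of that slide the median was 0.13. Of 25 lipoprotein genes 0 passed upward and 2 downward, among them Apof, while Lcat, which esterifies cholesterol on lipoproteins, was called only at 2-fold and an unadjusted p (1.26 ± 0.40, adjusted p = 0.0661, and 0.04 inside slide 2). In fatty acid and triglyceride synthesis (23 genes, median 0.08, and -0.18 inside slide 2) the acyltransferase Agpat2 was higher by 0.96 ± 0.21 (adjusted p = 0.0159) but at -0.18 inside slide 2, and Gpat4, which opens glycerolipid synthesis, was lower by 0.70 (SE 0.18, adjusted p = 0.0306). Gpat4 ranged from 1.82 to 3.17 in Ctrl and from 1.26 to 1.79 in AggE mice, with -0.39 inside slide 2.

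Of 24 bile acid genes 3 passed upward and 0 downward, and the median was -0.05 (-0.36 inside slide 2). They were Cyp27a1, Cyp8b1, which directs synthesis toward cholic acid (0.95 ± 0.27, adjusted p = 0.0404), and Nr0b2, the repressor that bile acids induce (0.50 ± 0.14, adjusted p = 0.0367). Inside slide 2 the changes of Cyp8b1 and Nr0b2 were 0.11 and -0.03. The export pump Abcb11 was called only at 2-fold and an unadjusted p, with a change of -1.05 ± 0.36 (adjusted p = 0.0894). Among 18 genes of sulfur amino acids and the urea cycle, Ass1 was higher and Cdo1, Glul and Glud1 were lower, although Glud1, with a change of -0.61, was at -0.0045 inside slide 2. Glul, the glutamine synthetase of pericentral hepatocytes, ranged from 4.11 to 5.44 (median 5.19) in Ctrl and from 3.95 to 4.54 (median 4.37) in AggE mice, a fall of 0.75 (SE 0.20, adjusted p = 0.032) in which only Ctrl mouse 2 lay in the AggE range. Of 13 pericentral genes 1 was higher (Cyp27a1) and 1 lower (Glul), and of 13 periportal genes 2 were higher (Ass1 and Aldh1b1, the latter by 0.76 and by 0.35 inside slide 2) and 0 lower.

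Lists of secreted liver proteins had medians below 0. Of all genes 3.99% passed the adjusted limit and 22.3% had an unadjusted p up to 0.05. At that unadjusted p 3 of 20 coagulation genes were higher and 8 lower. For complement these counts were 0 and 9 of 24, and for acute phase genes 4 and 4 of 25. Of 20 coagulation genes 17 were lower, with a median of -0.50 (-0.07 from Cy-5 alone and -1.03 without scaling between arrays), but 2 passed the limit downward (among them Plg, the precursor of plasmin, by 0.70) and 1 upward (F13b, by 0.98). Of 24 complement genes 16 were lower, with a median of -0.44 (0.01 from Cy-5 alone) and 1 call (C8a, -0.93, adjusted p = 0.0484). Of 25 acute phase genes 18 were lower, with a median of -0.23 (-0.02 from Cy-5 alone). Past the limit were Serpina3n and Crp upward and Saa4 downward, and Crp changed by 0.67 ± 0.18 (adjusted p = 0.0356). The defining hepatocyte genes moved with these lists, since 0 of 9 were higher and their median was -0.33 (0.04 from Cy-5 alone), with 0 past the limit and 1 at an unadjusted p. Male-biased liver genes (22, median -0.40, and 0.12 from Cy-5 alone) and genes of glucose and insulin handling (23, median -0.37, and -0.03 from Cy-5 alone) were alike in having 17 lower members each and 0 adjusted calls in limma, with 3 and 10 genes at an unadjusted p. Their members with the smallest p were the major urinary protein gene Mup5 (-0.85, adjusted p = 0.0883) and Gpd1, which links glycolysis to glycerol (-0.69, adjusted p = 0.056). Over these lists the per-mouse mean was lowest in an AggE mouse, at 3.19 for coagulation, where Ctrl mice lay between 3.90 and 4.41 and the highest AggE mouse was at 4.13. Inside slide 2 the median was -0.83 for coagulation, -0.87 for complement, -0.29 for acute phase, -0.82 for defining hepatocyte, -0.66 for male-biased and -0.56 for glucose and insulin genes. Without the 4 mice of slide 2, a choice made after seeing the data, these medians were -0.28, -0.11, -0.13, -0.25, -0.23 and -0.22. Without AggE mouse 2 alone the acute phase median was -0.12 and the male-biased median -0.21.

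**Figure D4:**
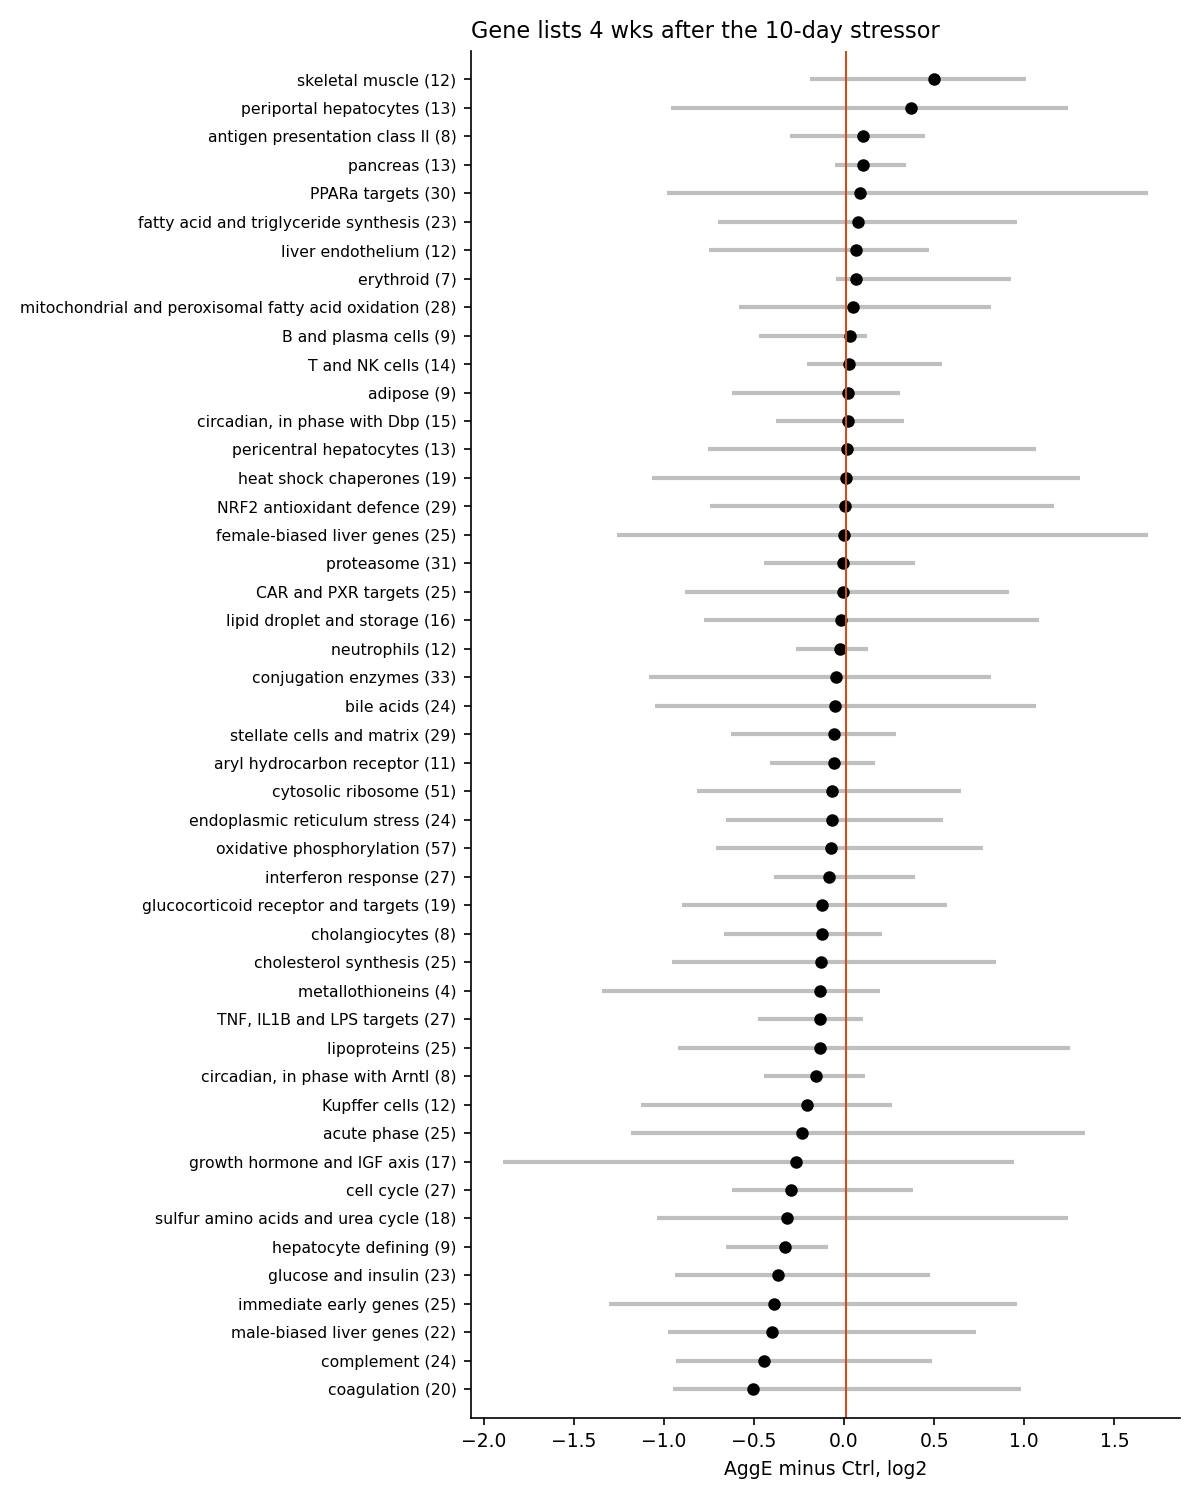
Median change (black points) and range from the lowest to the highest member (grey lines) of 47 gene lists, AggE minus Ctrl on the log2 scale, with the number of measured genes in parentheses and the median of all genes as the orange line. Medians lay between -0.50 (coagulation) and 0.50 (skeletal muscle), and the range of every list but the defining hepatocyte genes crossed 0.

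Of 17 genes of the growth hormone and IGF axis 13 were lower, with a median of -0.27 (-0.14 without Ctrl mouse 3), and 1 passed the adjusted limit. This gene, Igf2r, which takes up IGF2 and mannose-tagged enzymes, ranged from 0.31 to 0.55 (median 0.44) in Ctrl and from -0.17 to 0.15 (median -0.05) in AggE mice, without overlap, and fell by 0.47 (SE 0.10, adjusted p = 0.0129). Cish, named after its values were seen, a feedback inhibitor that growth hormone induces, had the most negative change of all genes, -1.89 ± 0.67, but did not pass (adjusted p = 0.101). Its values formed high and low clusters, with Ctrl mice 1, 3, 4 and 5 between 2.91 and 3.78, AggE mouse 6 at 2.56 and the other mice between -0.45 and 0.31. Of 25 immediate early genes, which respond to stimuli within minutes, 21 were lower, with a median of -0.39 (-0.04 without scaling between arrays and -0.16 without either Ctrl mouse 4 alone or the 4 mice of slide 2). Past the limit were Jun (-0.58 ± 0.14, adjusted p = 0.0238), Myc (-0.82 ± 0.24, adjusted p = 0.0481) and Gadd45a (-0.88 ± 0.26, adjusted p = 0.0485). Ctrl mouse 4 was the highest of all mice for these, and also, among genes looked up after their values were seen, for Egr1, at 0.61 against -4.34 to -3.76 in the other Ctrl mice, and the chaperone Dnajb1, at 2.31 against -0.86 to -0.51. Without Ctrl mouse 4 the changes were -0.41 for Jun (adjusted p = 0.056), -0.61 for Myc (0.136), -0.45 for Gadd45a (0.0468), -0.55 for Egr1 (0.512) and -0.57 for Dnajb1 (0.131).

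Marker lists of other cell types held few calls. Of 12 Kupffer cell genes 8 were lower and 4 higher (by up to 0.26), with a median of -0.21. Past the limit 1 was lower, the Fc receptor Fcgr1, which ranged from -0.10 to 0.17 in Ctrl and from -0.46 to -0.19 in AggE mice (-0.37 ± 0.07, adjusted p = 0.00874). Cd5l, a scavenger protein that Kupffer cells secrete, was called at 2-fold and an unadjusted p, with a change of -1.13 ± 0.34 (adjusted p = 0.0585). Of 14 T and NK cell genes 2 were higher, Zap70 (0.54 ± 0.11, adjusted p = 0.00951) and Cd4 (0.19 ± 0.05, adjusted p = 0.0396), both without overlap (Cd4 at 0.10 inside slide 2), while the list's median was 0.03. Neutrophil (12 genes), B and plasma cell (9), stellate cell and matrix (29), endothelial (12), class II antigen presentation (8) and erythroid (7) genes had 0 adjusted calls in limma and medians between -0.06 and 0.10. At an unadjusted p they held 1, 4, 7, 1, 1 and 1 genes in that order. The members with the smallest p were Ltf (at least 1.07-fold higher in AggE, well above background on 4 AggE and 0 Ctrl arrays), Blnk (-0.47), Col3a1 (-0.32), Clec4g (-0.75), Ciita (0.19) and Hba-a1 (0.93), with adjusted p between 0.0787 and 0.24. Inside slide 2 Hba-a1 had the opposite sign, at -0.61. Epcam fell among 8 cholangiocyte genes (-0.66 ± 0.16, adjusted p = 0.0242) but was well above background on 0 AggE arrays and 1 Ctrl array. With most Ctrl arrays also not well above background, its fold cannot be bounded. Of 27 cell cycle genes 23 were lower, with a median of -0.29 (0.22 without scaling between arrays and 0.01 from Cy-5 alone) and Tyms the only call (-0.47 ± 0.14, adjusted p = 0.0471, and -0.12 inside slide 2), and 17 were well above background on all arrays. Of skeletal muscle genes 9 of 12 were higher, 0 passed and 0 had an unadjusted p under the limit, and the median of 0.50 was -1.17 inside slide 2. Their mean per mouse ranged from -0.17 to 1.70 in Ctrl and from -0.06 to 1.72 in AggE mice. Pancreas genes (13) had 0 adjusted calls, 3 at an unadjusted p and a median of 0.10, and of 9 adipose genes Lep alone passed (0.31 ± 0.08, adjusted p = 0.0348, and 0.04 inside slide 2).

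Stress-responsive lists gave few calls at this time. Of 27 targets of TNF, IL1B and LPS 20 were lower, with 0 past the adjusted limit and 6 at an unadjusted p, and the median of -0.13 was 0.04 without scaling between arrays. Ptgs2, with the smallest p of these (adjusted p = 0.0661), was well above background on 0 arrays, and of 27 interferon response genes 2 fell (Ifi44 by 0.39 and Oas2 by 0.29). Among 19 glucocorticoid receptor genes and targets Tdo2, which breaks down tryptophan, fell by 0.90 (SE 0.25, adjusted p = 0.0382), and the receptor target Fkbp5, given for its role, was at -0.60 (adjusted p = 0.181). Metallothioneins (4), circadian genes in phase with Arntl (8) or with Dbp (15), NRF2 targets (29), aryl hydrocarbon receptor genes (11) and conjugation enzymes (33) had 0 adjusted calls in limma, with 1, 1, 0, 9, 3 and 9 genes at an unadjusted p. Their members with the smallest p were Mt4 (0.20), E2f8 (-0.36), Nr1d1 (0.21), Ephx1 (0.72, adjusted p = 0.0607), Tiparp (-0.41) and Gstm6 (0.78, adjusted p = 0.0767). Inside slide 2 Ephx1 and Gstm6 had the opposite sign, at -0.42 and -0.07, and Tiparp was at -0.18. Of 25 CAR and PXR targets 1 was higher (Cyp2c54, 0.91 ± 0.25, adjusted p = 0.0356), of 25 female-biased genes Cyp4a10 was higher and Cyp2a4 lower, and of 16 lipid droplet genes Fitm1 was higher by 0.75 (adjusted p = 0.0432, and 0.16 inside slide 2). Of 19 heat shock chaperones Hspb1 alone passed, of 24 endoplasmic reticulum stress genes Dnajc3 (-0.66), of 51 cytosolic ribosome genes Rpl30 (-0.65) and of 31 proteasome genes Psmd12 (-0.43). Inside slide 2 Rpl30 was at 0.05 and Psmd12 at -0.04. Over all 47 lists 53 of 873 genes (6.07%, beside 3.99% of all genes) passed the adjusted limit, 2 also under a random slide block (Hadha and Ndufb5), and 10 in every fit that left out a mouse.

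To ask whether these changes were already there at the end of the stressor, the contrast was set beside that of the other mice of the 10-day regimen, taken at 24 hrs (4 Ctrl and 5 AggE), in the same fit. The 24 hr contrast had 32 genes (0.175%) at 2-fold and an unadjusted p, 28 higher (0.153%) and 4 lower (0.0219%), and 17 (0.0931%) past the adjusted limit. At 2-fold and an unadjusted p 1 gene, Serpina3n, was called at both times, and past the adjusted limit 0 were. It had a change of 1.45 at 24 hrs (adjusted p = 0.505) and 1.33 at 4 wks. Most of the 21 genes named above had small changes at 24 hrs, such as 0.12 for Acad11, -0.08 for Cyp2a4 and -0.01 for Pon1, all with an adjusted p of 1. The 21 were chosen by their change at 4 wks. In limma the difference between the times passed the adjusted limit for none of them (adjusted p = 0.417 for Acad11 and 0.469 for Cyp2a4). Whether these changes arose after 24 hrs is thus not settled.

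The change at 4 wks minus the change at 24 hrs, tested itself, was past 2-fold and an unadjusted p for 80 genes (0.438%) and past the adjusted limit for 13 genes (0.0712%), 2 positive (0.011%) and 11 negative (0.0602%). The 2 positive ones are targets of PPARa. Hadha went from -0.09 at 24 hrs to 0.81 at 4 wks (difference 0.90 ± 0.17, adjusted p = 0.0164), and Acot1 from -0.95 to 0.85 (1.81 ± 0.34, adjusted p = 0.019). For Cyp4a10, at -0.60 and 1.68, the difference of 2.29 did not pass (adjusted p = 0.0701). The negative ones were mostly acute phase and metal-binding genes that were high at 24 hrs. Saa1 went from 3.50 to -0.23 (difference -3.74 ± 0.57, adjusted p = 0.00102), Saa3 from 3.33 to -0.06, the iron-binding Lcn2 from 2.90 to -0.12, Mt1 from 3.14 to -0.39 and Mt2 from 4.15 to -1.34, and Apoa4 from 2.63 to 0.32. At 4 wks Ctrl mice 1 and 4 were at -0.52 and 0.18 for Mt2, and the other Ctrl mice between -4.342 and -4.025. For Mt1 the same mice were at -1.88 and -1.95, also above the other Ctrl mice. Without Ctrl mouse 4 the changes at 4 wks were -0.73 for Mt2 and -0.11 for Mt1. Under a random slide block limma called 0 differences at the adjusted limit and 542 without adjustment. The groups taken at 24 hrs share no slide, so there the slide and the group cannot be told apart.

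**Figure D5:**
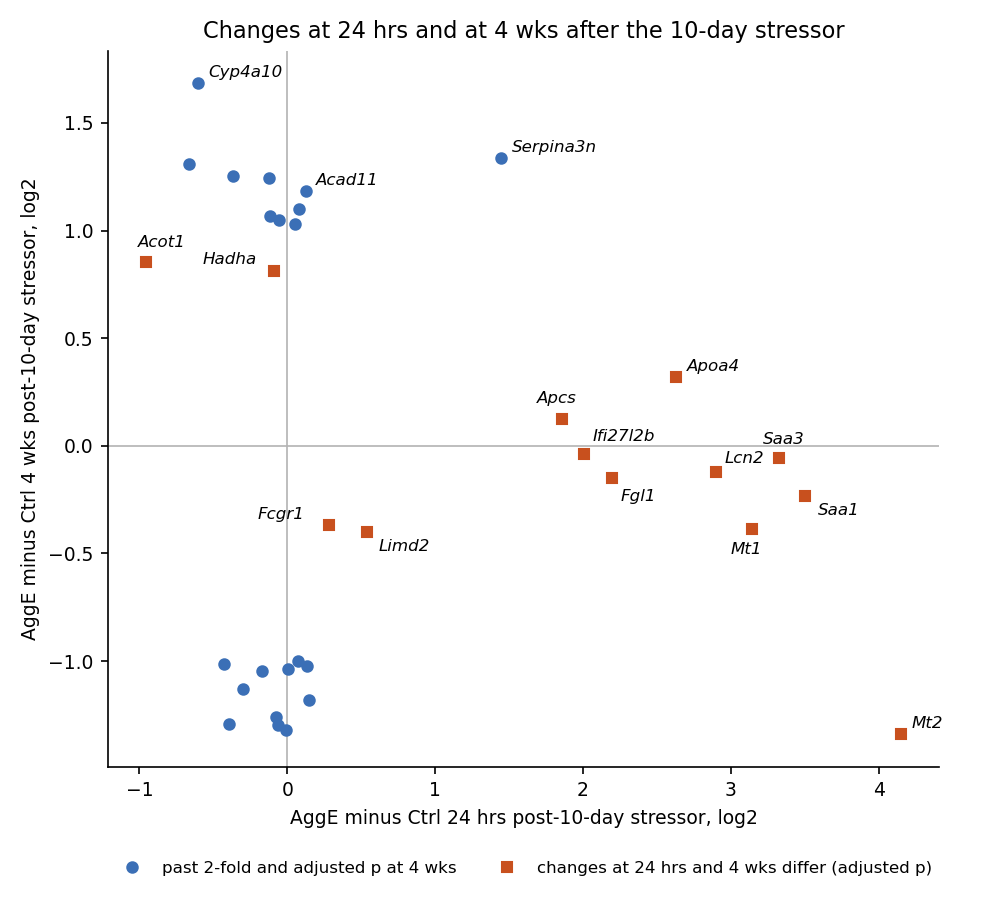
Change (AggE minus Ctrl, log2) at 24 hrs (horizontal axis) and at 4 wks (vertical axis) post-10-day stressor, for the 21 genes past 2-fold and the adjusted limit at 4 wks (blue) and for the 13 genes whose changes differ between the times (orange). At 24 hrs the blue points lie between -0.66 (Hspb1) and 0.15 (Saa4) except Serpina3n, and Saa1, Saa3, Lcn2, Mt1 and Apoa4 lie at 2.63 or more at 24 hrs and between -0.39 and 0.32 at 4 wks.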

How the data were processed

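Liver RNA (Cy-5) and a common reference RNA (Cy-3) were compared on dual dye Agilent arrays, 1 per mouse. The authors deposited median spot and local background intensity values, read with Feature Extraction 11.5.1.1 per the file headers. They also deposited processed intensity values and their log10 ratio (Cy-5 over Cy-3), used only as alternatives. The background was corrected with normexp (offset 50), followed by loess within arrays and quantile scaling across all 39 (limma 3.58.1, R 4.3.3). Spots marked as outliers (0.337% to 1.04% on the 12 arrays) were left out, as were control spots, and repeated spots were averaged. The 25903 probes of RefSeq transcripts stand for 18259 genes, 17016 of them with a symbol from a RefSeq table (GRCm38.p6) used for names. A gene was read from the probe with the highest mean Cy-5 signal. A single limma model estimated the means of 8 groups, and its moderated p-values were adjusted over all 25903 probes with the Benjamini-Hochberg method. The model was tested on simulated data in which arrays varied independently. These held no slide effect, so the test says nothing of the slide.

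Genes named are those past 2-fold and the adjusted limit, and members of 47 gene lists past that limit or, where a list has under 3, those with the smallest p. The members and lists were chosen with earlier results of these data known. No array copied another (correlations 0.867 to 0.984). Metabolites and proteins were not analysed here. Alternatives covered background, scaling, probes, array weights, slide, scan day, replicate block and single mice. Some list members are not reported here.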

Additional observations from a re-analysis of the deposited data

Results flagged for a closer look

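In the Ctrl group, Cdo1 was highest in mouse 6, at 6.36, with a gap to the next mouse that took most of the group's range. AggE mouse 1 stood below the other 5 AggE mice in the same way for Fcgrt (-0.49), Ddt (1.46), Serpina3n (0.28), Oaz1 (-2.97), Tecr (-1.83), Ass1 (1.95) and Cyp27a1 (0.22). Chance alone would single out about 1 in 20 groups, and these 7 genes share 1 mouse and 1 slide, whose part in the values was not tested. AggE mouse 1 also had the lowest array weight of the 12 (0.208), ahead of Ctrl mouse 6 (0.314).

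The change at 4 wks differed from the change at 24 hrs after the same regimen, by the adjusted test and at 2-fold or more, for 10 genes. The differences were -5.49 for Mt2, -3.74 for Saa1, -3.53 for Mt1, -3.39 for Saa3, -3.02 for Lcn2, -2.35 for Fgl1, -2.31 for Apoa4, -2.04 for Ifi27l2b and -1.74 for Apcs, and 1.81 for Acot1. Lcn2 was well above background on 1 array of each group at 4 wks. For Mt1 and Mt2, Ctrl mice 1 and 4 at 4 wks lay above the other Ctrl mice. With the slide as a random block the adjusted p of these 10 differences lay between 0.351 and 1.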

How the results depend on the processing

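The 2-fold count moved by over 1.5 times under 15 of 31 alternatives and the adjusted count under 22. The first count here is that at 2-fold and an unadjusted p (56 as reported) and the second that past the adjusted limit (729). They were 308 and 1816 both with Aquantile scaling and with no scaling between arrays, which give the same ratios, with 28 of the 308 higher. They were 34 and 6 from Cy-5 alone (29 of 34 higher), 504 and 111 from the deposited log ratios (313 of 504 higher), 349 and 70 from the processed signals (269 of 349 higher) and 156 and 246 with an offset of 16 (31 of 156 higher). Without background subtraction the adjusted count was 210, and 61 of 67 genes at 2-fold were higher. They were 105 and 2170 with array weights (87 of 105 higher), 342 and 1489 within the slide that held both groups (with 1 AggE mouse there, assumed to vary like the other groups), 35 and 80 with Ctrl mice 1 to 3 only, and 194 and 1436 with Ctrl mice 4 to 6 only. With the slide as a fixed block 210 genes were called at 2-fold, and 124 of the 730 past the adjusted limit were among the 729. A random slide block gave an adjusted count of 10, and it was 79 with the 12 arrays alone and 1099 with the scan day as a block. It was 158 without the 4 mice of the shared slide, a choice made after seeing the data. Leaving out 1 mouse at a time gave 36 to 110 and 122 to 1708. Within the shared slide the change reversed for Oaz1 (-0.194), Hspb1 (-0.243) and Tecr (-0.0624). The cause of these shifts was not tested.

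For the change at 4 wks minus that at 24 hrs (80 and 13), the counts were 515 and 6 from the processed signals, 746 and 7 from the deposited log ratios, 150 and 324 with array weights, 41 and 0 under a random slide block, and 357 and 397 with it as a fixed block. The first count was 123 without background subtraction and 137 with an offset of 16, and the second was 5 with Aquantile or no scaling between arrays. Leaving out 1 mouse gave 66 to 135 and 8 to 45. With the slide as a fixed block the fit returned 357 and 397. The Ctrl and AggE mice taken at 24 hrs share no slide, so a fixed block cannot separate their change from the slide. The counts of 357 and 397 are therefore not corrected for the slide, and no conclusion is drawn from them.

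With the replicate number as a block 55 and 564 genes were called, 421 of the 564 among the 729, and the pairing is in number alone, since same-numbered mice deviated together in only some pairs (correlations -0.448 to 0.202). List medians kept their sign under all 31 alternatives for acute phase, coagulation, Kupffer cell, immediate early, growth hormone and glucose genes, and changed it under at least 1 for the other lists. Dim probes limit what low genes can show.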
